A study of Mus musculus with 57 samples.

Results

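Lewis lung carcinoma tumours of unirradiated adolescent male mice were compared between the 2 sham schedules of a proton irradiation study. The members were chosen by their labels and were the 9 adolescent tumours of the acute sham (0 Gy acute) and the 9 adolescent tumours of the sham given as 3 mock fractions (0 Gy x3), so 18 of the 57 arrays of the study. Every difference is given as acute minus x3. Lewis lung carcinoma (LLC) is a mouse lung tumour line that is grown as a transplanted tumour, so that a tumour sample holds carcinoma cells together with vessels, fibroblasts and immune cells of the host. None of the 18 tumours received radiation, and the labels give them no other treatment. The mice are labelled young or adolescent, and neither their age in weeks, their strain, the site of the tumour nor what a sham session consisted of is given in the sources used here. The other arrays came from 10 adolescent tumours irradiated with 0.5 Gy x3 and from 29 tumours of old mice (10 sham acute, 9 sham x3 and 10 irradiated). Total RNA of each tumour was hybridised to its own Illumina Mouse WG-6 BeadArray, a chip of bead-bound probes whose brightness rises with the amount of a transcript.

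Several well-known programmes respond to handling and to the hour of sampling. The unfolded protein response raises chaperones of the endoplasmic reticulum when proteins fold poorly there, the heat shock response does so in the cytosol, and glucocorticoids raise a set of direct target genes during restraint or handling. The circadian clock drives daily cycles of output genes such as Dbp and Tef in most tissues, so that their level depends on the hour of sampling.

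The carcinoma label was checked against marker genes. Probes for the keratins Krt8 and Krt18 and for the adhesion protein Cdh1 were detected on all 18 arrays (detection p under 0.05, a test of each probe against the chip's negative control beads). Of the further epithelial markers, Cldn7 was detected on 15 arrays and Krt7 on 7, while Epcam, Krt19 and Cldn4 were detected on 0. Of 10 lung alveolar and airway markers, Sftpc, Scgb1a1, Nkx2-1 and Sftpa1 were detected on 0 of 18 arrays. The others were detected on 18 (Hopx), 15 (Ager), 10 (Foxj1), 3 (Aqp5), 2 (Sftpd) and 1 (Sftpb). Krt8 lay between 10.43 and 11.63 in the x3 tumours and between 10.78 and 11.91 in the acute tumours on the log2 scale used throughout (neqc values, intensities corrected for background and quantile normalized).

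The arrays of the schedules differed before any gene was considered. The background intensity inferred from each array's detection p-values was 99.8 ± 10.8 (SD, n = 9) in the x3 set, with values from 85.4 to 114.8, and 140 ± 4.78 (SD, n = 9) in the acute set, with values from 131 to 145. The ranges did not overlap, and the difference of 39.8 had a two-sided exact permutation p of 4.11e-05, the smallest that 48620 splits can give. The 10 irradiated adolescent tumours of the x3 schedule had a background of 105 ± 13.3. In every result that follows, handling of the mice and processing of the samples cannot be told apart. The share of probes detected was 40.6% ± 1.27 in the x3 set and 40.2% ± 1.80 in the acute set, a difference of -0.454 percentage points (exact permutation p = 0.539). At a detection p under 0.01 the sign turned, to 0.663 points (exact permutation p = 0.321).

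**Figure D1:**
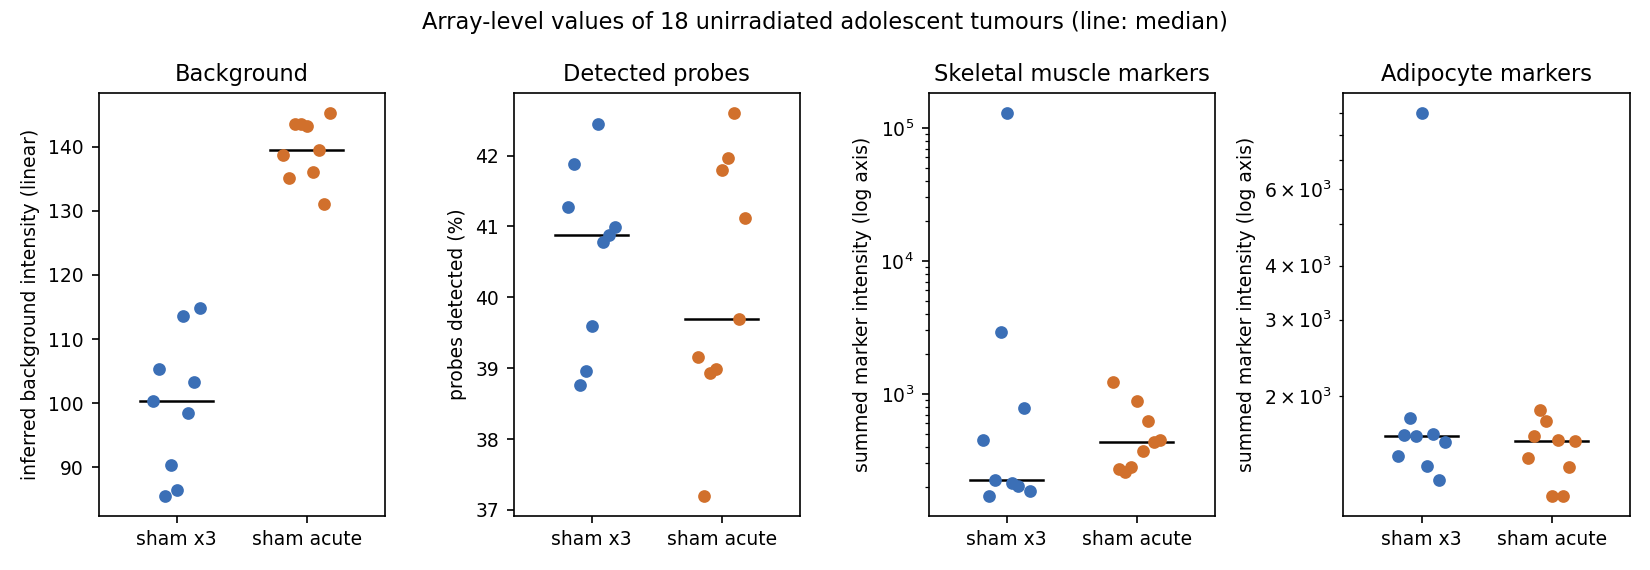
Background intensity (linear units), share of probes detected (%), and summed intensity of skeletal muscle and adipocyte markers (linear units on a log axis) on each of the 18 arrays, with 1 point per tumour and a line at the median of 9. The acute arrays lie between 131 and 145 in background, above every x3 array. A single x3 array, replicate 5, stands at a muscle sum of 130166 and an adipocyte sum of 9020. The adipocyte sum holds 3 measured markers, Lpl, Pnpla2 and Lep. Of 13 adipocyte markers with a probe, 5 were detected on 0 of the 18 arrays.

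Replicate 5 of the x3 set stood apart. The summed background-corrected intensity of its 7 measured skeletal muscle markers was 130166, against a median of 224 over the x3 arrays and a range of 258 to 1230 in the acute arrays. The next highest x3 sum, 2934 in replicate 4, also lay above every acute array. In replicate 5, Acta1, the skeletal muscle actin, reached 14.59, against an x3 median of 5.33, and Lpl, the lipoprotein lipase of fat and muscle, reached 12.49 against 7.55. Its mean correlation with the other arrays was 0.937, against a median of 0.970. The first principal component of the 18 arrays (19.9% of the variance) separated this tumour, and without it the first component (21.0%) separated the schedules, with x3 tumours from -30.2 to -9.12 and acute tumours from 9.40 to 27.2. Results are given with and without this tumour wherever it mattered.

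Of 17848 probes detected on at least 9 of the 18 arrays, 3316 (18.6%) differed between the schedules at a Benjamini-Hochberg adjusted p under 0.05 in limma, which is what "called" means below. They comprised 1676 probes higher in acute tumours (9.39%) and 1640 lower (9.19%). The changes were small, with a median size of 0.46 log2 units among the higher probes and 0.50 among the lower ones, and 21 and 22 of them passed 1 log2 unit. At an unadjusted p under 0.05, 5784 probes differed. The groups did not overlap at all for 269 probes (1.51%) and 156 genes (1.62%). Taking the brightest kept probe of each gene, 1097 of 9636 genes were higher (11.4%) and 684 were lower (7.1%), with a median difference of 0.03 over all genes. Without x3 replicate 5, 3585 probes were called (20.3%), of which 2988 had been called in the same direction with it and 0 in the opposite direction, while 328 calls were lost.

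The direction of the calls depended on the scaling. Higher probes made up 50.5% of the calls after quantile normalization, 40.5% after scaling to a common median (1447 higher and 2124 lower) and 29.5% after rank-invariant scaling (898 and 2145), the method named in the series' design text. With each array's background intensity as a covariate, 5 probes were called, 1 higher and 4 lower. Since background and schedule do not overlap, that fit cannot separate them. A fit of all probes called 2.22% of the 23776 that were at background on 16 or more arrays, against 15.8% of the kept ones.

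The 12 largest rises in acute tumours, taken among genes detected on all 9 acute arrays, were of genes with varied functions. Tmem176a, which encodes a membrane protein found in dendritic and other myeloid cells, ranged from 5.10 through a median of 5.92 to 7.20 in x3 tumours and from 6.47 through 7.54 to 7.80 in acute tumours. Only the highest x3 tumour, replicate 8, reached into the acute range. The difference was 1.38 ± 0.22 log2 units (SE, adjusted p = 0.000397), or 2.61-fold. Chil3, a secreted chitinase-like protein made by alternatively activated macrophages and neutrophils, ran from 4.60 through 5.95 to 6.66 in x3 tumours and from 6.17 through 6.81 to 8.22 in acute ones. The groups overlapped at the edges, and the difference was 1.36 ± 0.31 (adjusted p = 0.00533), with a second probe also higher by 0.94 (adjusted p = 0.0298). Chil3 was detected in 6 of 9 x3 tumours and in all 9 acute ones. In bulk tissue, fewer cells of a type and less RNA per cell cannot be told apart.

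Other rises left no overlap between the groups. Nectin2, an adhesion molecule of the nectin family, lay between 6.56 and 7.23 in x3 tumours (median 6.79) and between 7.35 and 8.26 in acute tumours (median 7.93). The difference was 1.09 ± 0.13 (adjusted p = 6.76e-05), and the second probe of the gene rose by 1.04. Bcl9l, a coactivator of beta-catenin in Wnt signalling, went from 8.37 to 9.04 in x3 tumours (median 8.64) and from 9.18 to 9.96 in acute ones (median 9.67). All acute tumours were above all x3 tumours, with a difference of 0.97 ± 0.11 (adjusted p = 4.09e-05). Arap1, a GTPase-activating protein for Arf proteins, rose by 1.08 ± 0.14 and its second probe by 0.72, both called. Tpt1, the translationally controlled tumour protein, rose by 1.30 ± 0.16 on a dim probe that was detected in 7 of 9 x3 tumours and in all 9 acute ones. Pramel4, of the PRAME family, and BC004004 also had groups without overlap, with differences of 0.94 and 0.99.

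Among the largest rises with overlapping groups were 2 genes of fuel metabolism. Slc27a1, a fatty acid transport protein, ranged from 6.97 through 7.52 to 8.31 in x3 tumours and from 7.97 through 8.46 to 9.22 in acute tumours, and rose by 0.98 ± 0.19 (adjusted p = 0.00145). Mlxipl, the carbohydrate-responsive transcription factor ChREBP, was detected in 1 of 9 x3 tumours and in all 9 acute ones, with medians of 4.56 and 5.74. Detection in all 9 acute tumours was a condition of the choice, so the probe was kept almost wholly through them. The x3 tumour at 6.24 was replicate 5, and the difference grew from 1.04 to 1.25 without it. After scaling to a common median the call for Mlxipl was lost (0.89, adjusted p = 0.0514). Anpep, the surface peptidase aminopeptidase N, rose by 0.97 ± 0.22. Nkx2-2, a homeobox factor of neural tube and pancreatic islet, rose by 0.94 ± 0.12 on 1 of its 2 probes, while the second differed by 0.23 (adjusted p = 0.271).

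The 12 largest falls, taken among genes detected on all 9 x3 arrays, were of genes with varied functions. Rtn4, a reticulon that shapes the endoplasmic reticulum and is also known as Nogo, ranged from 8.78 through 9.44 to 9.91 in x3 tumours and from 7.96 through 8.20 to 8.68 in acute tumours. Every acute tumour was below every x3 tumour. The difference was -1.21 ± 0.14 (adjusted p = 3.47e-05), and 4 of the gene's 5 kept probes were called lower. Psmd2, a subunit of the proteasome's regulatory particle, lay from 6.51 to 7.18 in x3 tumours (median 7.02) and from 5.25 to 6.33 in acute tumours (median 5.80). The groups did not overlap, and its probes fell by 1.09 and by 0.84, both called. Dctn1, the large dynactin subunit that links dynein to its cargo, ranged from 7.97 through 8.72 to 9.31 in x3 tumours and from 7.11 through 7.29 to 7.86 in acute ones. Again no acute tumour reached the x3 range, with a difference of -1.17 ± 0.18 (adjusted p = 0.000358).

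The RNA-binding genes in this set were Rbm39, a splicing factor, and Ddx5, an RNA helicase. Rbm39 ran from 8.02 through 8.65 to 9.01 in x3 tumours and from 7.07 through 7.62 to 7.88 in acute tumours, without overlap. It fell by 0.94 ± 0.13 (adjusted p = 0.000125). Ddx5 had overlapping groups, with medians of 8.65 and 7.50, and fell by 1.01 ± 0.22 (adjusted p = 0.00363). Acap2, a GTPase-activating protein for Arf6, had the lowest adjusted p among the genes named here, 6.17e-06, for a fall of 1.09 ± 0.10. Its values were 6.24 to 6.91 in x3 tumours and 5.13 to 5.78 in acute tumours. Its second, dimmer probe differed by -0.42 (adjusted p = 0.0581). Rsph3a, a radial spoke protein of cilia, fell by 1.09 ± 0.14 without overlap between 9.58 to 10.44 in x3 and 8.28 to 9.17 in acute tumours.

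ND5, a subunit of respiratory complex I encoded in the mitochondrial genome, ranged from 7.87 through 9.22 to 9.85 in x3 tumours and from 6.80 through 7.53 to 8.17 in acute tumours. The groups overlapped in 1 x3 tumour's value, and the difference was -1.59 ± 0.24 (adjusted p = 0.000314). Myo19, a myosin that sits on mitochondria, fell by 1.08 ± 0.18 and was detected in 4 of 9 acute tumours. Slc37a4, the glucose 6-phosphate transporter of the endoplasmic reticulum, fell by 0.98 ± 0.20 and was detected in 1 of 9 acute and in all 9 x3 tumours. Detection in all 9 x3 tumours was a condition of the choice, so this probe was kept almost wholly through them. Hspb1, a small heat shock protein, ranged from 5.52 through 7.44 to 11.42 in x3 tumours and from 4.62 through 5.65 to 6.63 in acute ones. The highest value was that of the x3 tumour with the muscle markers, and the difference of -1.75 ± 0.54 became -1.26 without it (adjusted p = 0.0294 and 0.0149). Dtna, dystrobrevin alpha of the dystrophin complex, had its highest value, 8.98, in the same tumour, and fell by 1.15 with it and by 0.81 without it (adjusted p = 0.0244 and 0.00182).

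**Figure D2:**
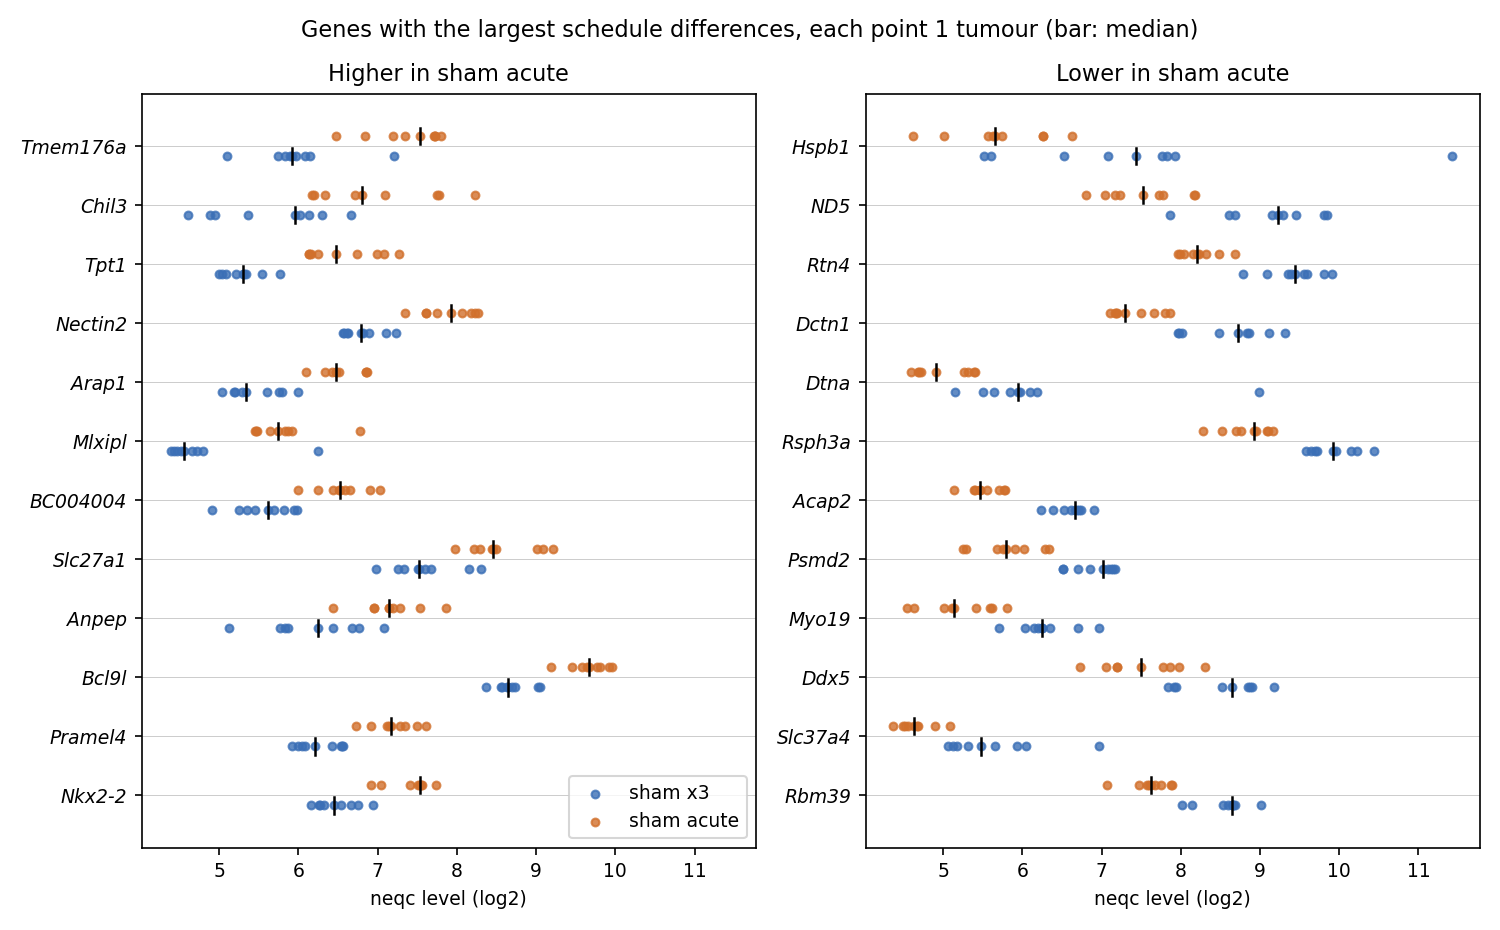
Normalized level (neqc, log2) of the 12 genes with the largest rises and the 12 with the largest falls in acute tumours, with 1 point per tumour, 9 per schedule, and a bar at the median. For 6 genes of each direction the schedules do not overlap, and the single x3 points far to the right for Hspb1 (11.42), Dtna (8.98) and Mlxipl (6.24) are replicate 5.

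In the unfolded protein response list, 3 of 17 measured genes were higher (17.6%) and 1 was lower (5.88%), with a median of 0.10. Over all genes, 11.4% were higher and 7.1% were lower, and the count of every list below stands beside these shares. Hsp90b1, the reticulum's Hsp90 (GRP94), ranged from 11.56 through 11.73 to 11.90 in x3 tumours and from 11.89 through 11.99 to 12.28 in acute tumours. The groups met only at their edges, and the difference was 0.32 ± 0.08 (adjusted p = 0.00923). Hspa5, the lumenal Hsp70 chaperone BiP, rose by 0.68 ± 0.16 (adjusted p = 0.00714) on a dim probe detected in 3 of 9 x3 and 8 of 9 acute tumours, and the call was lost after median scaling (0.53, adjusted p = 0.109). Hyou1, a large chaperone of the same compartment, went from a median of 6.02 to 6.73, a difference of 0.66 ± 0.15 (adjusted p = 0.00567). Xbp1, the transcription factor of the pathway, was lower by a slight margin, at -0.27 ± 0.09 (adjusted p = 0.047), a call that was lost without acute replicate 11 (adjusted p = 0.0531) and after median scaling (adjusted p = 0.123). The remaining 13 genes, among them Ddit3, Atf4, Herpud1 and Dnajb9, were not called.

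The promoters of Hspa5 and Hsp90b1, among the 3 chaperones called higher, are shown because the pathway is known to act through the ER stress response element, written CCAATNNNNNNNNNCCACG. The 250 bases before the start were taken from RefSeq (GRCm38.p6), with matches on either strand in capitals. That of Hyou1 was not analysed here.
Hspa5, chr2:34771840-34772089, plus strand: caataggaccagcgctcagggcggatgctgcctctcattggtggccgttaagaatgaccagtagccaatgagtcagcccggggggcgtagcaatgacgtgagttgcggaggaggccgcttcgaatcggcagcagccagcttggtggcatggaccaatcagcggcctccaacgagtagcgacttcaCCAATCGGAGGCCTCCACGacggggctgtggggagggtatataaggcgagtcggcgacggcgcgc
Hsp90b1, chr10:86705445-86705694, minus strand: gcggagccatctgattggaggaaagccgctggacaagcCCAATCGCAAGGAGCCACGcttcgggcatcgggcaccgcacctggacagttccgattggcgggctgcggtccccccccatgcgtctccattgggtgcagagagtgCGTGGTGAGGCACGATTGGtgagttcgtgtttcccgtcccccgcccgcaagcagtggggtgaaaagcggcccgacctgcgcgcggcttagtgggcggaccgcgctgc
Hspa5 held 1 match, which began 65 bases before the start, and Hsp90b1 held 2, which began 212 and 107 bases before it. Of 32851 promoters of the same length, 37 (0.1126%) held a match on either strand. The promoters of Xbp1 and of the uncalled genes of the list were not looked at singly, so whether a match goes with a rise was not tested. A match describes the sequence and does not show binding in these tumours.

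In the heat shock list, 1 of 14 measured genes was higher (7.14%) and 3 were lower (21.4%), beside 11.4% and 7.1% of all genes. The median was -0.33 (-0.25 without x3 replicate 5). Besides Hspb1, the lower genes were Hsph1, a large Hsp110 chaperone, which fell by 0.54 ± 0.17 (adjusted p = 0.0277), and Hsp90aa1, the inducible cytosolic Hsp90. Hsp90aa1 ranged from 9.81 through 10.26 to 10.62 in x3 tumours and from 9.04 through 9.72 to 9.94 in acute tumours on its brightest probe, a difference of -0.57 ± 0.13 (adjusted p = 0.00572). Its second, dimmer probe was called in the opposite direction, at 0.79, so the gene has no single direction here. Hspe1, a mitochondrial chaperonin, was higher by 0.42 ± 0.13 (adjusted p = 0.0283) and lost its call after rank-invariant scaling (adjusted p = 0.0655). Hspa1a, Dnajb1 and Hspa8 differed by 0.09, 0.05 and -0.13 without a call.

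Of 14 measured clock genes, 0 were higher and 2 were lower (14.3%), beside 11.4% and 7.1% of all genes, with a median of -0.13. Both belong to the clock's output transcription factors of the PAR bZIP family. Dbp ranged from 8.61 through 9.31 to 10.67 in x3 tumours and from 7.93 through 8.47 to 8.83 in acute tumours, with a small overlap. It fell by 0.86 ± 0.21 (adjusted p = 0.00752). Tef went from 7.58 through 8.31 to 9.75 in x3 tumours and from 7.43 through 7.76 to 8.10 in acute ones, and fell by 0.64 ± 0.19 (adjusted p = 0.0238). The highest value of both was x3 replicate 5, and without it the falls were 0.69 and 0.47, both still called (adjusted p = 0.0039 and 0.0117). The core clock genes Arntl, Clock, Per1, Per2 and Nr1d1 differed by 0.27, 0.06, 0.45, -0.22 and -0.25, and were not called. The hour of sampling is not given in the sources used here.

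Since Dbp and Tef are textbook targets of the clock through the E-box CACGTG, their 250 bases before the start were searched on both strands, with the match in capitals.
Tef, chr15:81811164-81811413, plus strand: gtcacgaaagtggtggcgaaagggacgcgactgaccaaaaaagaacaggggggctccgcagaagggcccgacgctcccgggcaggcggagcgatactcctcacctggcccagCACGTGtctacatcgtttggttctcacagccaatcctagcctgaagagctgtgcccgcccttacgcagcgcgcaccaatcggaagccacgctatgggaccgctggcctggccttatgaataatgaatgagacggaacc
Dbp, chr7:45704997-45705246, plus strand: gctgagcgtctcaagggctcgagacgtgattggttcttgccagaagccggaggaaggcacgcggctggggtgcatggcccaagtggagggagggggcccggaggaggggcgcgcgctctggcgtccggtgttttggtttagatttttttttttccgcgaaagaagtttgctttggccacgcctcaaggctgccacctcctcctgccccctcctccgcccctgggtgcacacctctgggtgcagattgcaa
Tef held 1 match in this window and 1 in the window of its other listed start, while these letters are not in the window of Dbp. Of 32851 promoters, 1978 (6.021%) held one.

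In the extracellular matrix list, 4 of 27 measured genes were higher (14.8%) and 0 were lower, against 11.4% and 7.1% of all genes. The median was 0.17, and 23 of the 27 differences were above 0, beside 5282 of all 9636 genes. Col6a2, a chain of collagen VI, ranged from 8.56 through 9.15 to 9.62 in x3 tumours and from 9.48 through 9.83 to 10.95 in acute tumours. The groups overlapped slightly, and the difference was 0.84 ± 0.18 (adjusted p = 0.00379). Col6a1 rose by 0.70 ± 0.16, the fibrillar collagen Col3a1 by 0.64 ± 0.17 and the basement membrane collagen Col4a1 by 0.52 ± 0.14 (adjusted p = 0.00612, 0.0108 and 0.0126). The other probes of the first 3 were not called higher. That of Col6a2 differed by 0.06, those of Col6a1 by 0.07 and -0.06, and that of Col3a1 by -0.60, none of them called. In the fibroblast and pericyte list, which shares Col3a1, 3 of 15 were higher and 0 lower. The others were Dpt, the matrix protein dermatopontin, at 0.61 ± 0.18, and Pdgfra, a receptor that marks fibroblasts, at 0.51 ± 0.14. The summed intensity of the list ran from 17673 to 30660 in x3 tumours and from 20172 to 31232 in acute tumours, so the groups overlapped over nearly the whole range. The part of fibroblast content in these differences was not tested.

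Lipid synthesis had 4 of 11 measured genes higher (36.4%) and 1 lower (9.09%), beside 11.4% and 7.1% of all genes. Elovl6, an elongase of long-chain fatty acids, ranged from 8.58 through 8.83 to 9.29 in x3 tumours and from 8.93 through 9.48 to 9.94 in acute tumours, a difference of 0.62 ± 0.13 (adjusted p = 0.00343). Acly, which makes cytosolic acetyl-CoA from citrate, rose by 0.41 ± 0.10 from a median of 11.40 to 11.76. Srebf1, the transcription factor SREBP1, rose by 0.45 ± 0.16 (adjusted p = 0.0493). Its call was lost without x3 replicate 5 (adjusted p = 0.0781) and held under only 5 of 18 alternatives of processing and fit. Lss, lanosterol synthase, rose by 0.73 ± 0.14 on its brightest probe and fell by 0.37 on its dimmer one, both called, so its direction is unsettled. Scd2, a stearoyl-CoA desaturase, ranged from 8.52 through 9.07 to 9.49 in x3 tumours and from 7.78 through 8.43 to 8.97 in acute tumours, and fell by 0.62 ± 0.15 (adjusted p = 0.00758). The adipocyte sum was 1277 to 9020 in x3 tumours and 1171 to 1856 in acute tumours, and Lep differed by -0.04 without a call. Without x3 replicate 5 the list had 3 genes higher and 2 lower.

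Of 25 measured interferon response genes, 2 were called higher (8%) and 1 lower (4%), beside 11.4% and 7.1% of all genes. The median was 0.39 (0.36 without x3 replicate 5), and 22 of the 25 differed by more than 0, beside 5282 of all 9636 genes. Oasl1, which restrains Irf7 translation, was higher by 0.75 ± 0.23 (adjusted p = 0.0253), and Ddx58, which encodes the RNA sensor RIG-I, by 0.46 ± 0.12 (adjusted p = 0.0114). After median scaling neither call held (adjusted p = 0.201 and 0.0841). Zbp1, a sensor of Z-form nucleic acids, was lower by 0.48, a call lost without x3 replicate 5 and without acute replicate 11 (adjusted p = 0.0555 and 0.0655). Usp18, Igtp, Ifit3 and Gbp2 had differences of 0.80, 0.73, 0.71 and 0.71 with adjusted p of 0.1, 0.12, 0.117 and 0.0922. In the antigen presentation list, Nlrc5, the transactivator of class I genes, was higher by 0.89 ± 0.29 (adjusted p = 0.0391, and 0.0577 without x3 replicate 5 or 0.0531 without acute replicate 11), and Tapbp, the peptide loading factor tapasin, was lower by 0.54 ± 0.17 (adjusted p = 0.0331). The other probe of Tapbp differed by -0.07 (adjusted p = 0.815). The class I genes H2-K1 and H2-D1 differed by -0.06 and 0.05.

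Most markers of host cells were not called, and neither were 7855 of all 9636 genes (11.4% were called higher and 7.1% lower). Of the macrophage and monocyte markers, 1 of 14 was higher, Csf1r, the receptor for the growth factor Csf1, by 0.54 ± 0.15 on its brightest probe, while its second probe differed by -0.35 without a call. Csf1 itself ranged from 8.85 through 9.59 to 10.36 in x3 tumours and from 8.31 through 8.99 to 9.38 in acute ones, and fell by 0.74 ± 0.17 (adjusted p = 0.00596). The summed macrophage intensity was 27444 to 48748 in x3 and 29159 to 50107 in acute tumours. Neutrophil, mast cell, and T and NK cell lists had 0 called of 9, 7 and 5 measured genes, and no B cell marker was detected on more than 2 arrays. Siglech, a marker of plasmacytoid dendritic cells, was higher by 0.69 ± 0.19 and was detected in 6 of 9 x3 and in all 9 acute tumours, a call lost after median scaling (adjusted p = 0.138). Endothelial markers had 1 of 15 higher, Egfl7, by 0.45 ± 0.14 (adjusted p = 0.028). Without x3 replicate 5, 2 endothelial markers were called higher. Skeletal muscle had 0 of 7 called, with a median of -0.56 that became 0.22 without x3 replicate 5, when 1 was called higher.

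Ribosomal protein genes had 6 of 38 higher (15.8%) and 0 lower, beside 11.4% and 7.1% of all genes, with a median of 0.06. Rps4x ranged from 13.56 through 13.99 to 14.46 in x3 tumours and from 14.30 through 14.39 to 14.88 in acute ones, a difference of 0.51 ± 0.12. The other 5 were Rpl30 (0.40), Rpl27 (0.30), Rpl38 (0.28), Rps6 (0.27) and Rps26 (0.25). The dimmer probes of Rpl30 and Rpl38 differed by -0.05 and 0.35, neither of them called. Rps6 and Rps26 lost their calls without x3 replicate 5 (adjusted p = 0.0681 and 0.055) and without acute replicate 11 (adjusted p = 0.0527 and 0.0536), and the list had 2 calls after rank-invariant scaling. Among 27 cell cycle genes, E2f1 and Foxm1, both transcription factors of the dividing cell, were higher by 0.66 ± 0.11 and 0.60 ± 0.13 (adjusted p = 0.000836 and 0.00414), with 0 lower. E2f1 went from 8.73 through 9.25 to 9.46 in x3 tumours and from 9.27 through 9.85 to 10.13 in acute tumours, overlapping slightly. Of 32 genes of mitochondrial respiration, all from the nuclear genome as listed, Cox7a2 (0.59, groups without overlap) and Ndufa2 (0.34) were higher and 0 were lower, beside the fall of the mitochondrially encoded ND5.

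Handling and hypoxia lists showed isolated genes. Of 15 glucocorticoid targets, 1 was higher: Fkbp5, a co-chaperone of the glucocorticoid receptor, ranged from 9.17 through 9.42 to 9.74 in x3 tumours and from 9.72 through 9.98 to 10.42 in acute tumours. The groups overlapped only at their edges, and the difference was 0.55 ± 0.11 (adjusted p = 0.00165). Of 20 immediate early genes such as Fos, Egr1 and Jun, 0 were called, with a median of -0.10, although 1 was called lower after median scaling. In the hypoxia list, P4ha1, a collagen prolyl hydroxylase, fell by 0.73 ± 0.19 on its brightest probe (adjusted p = 0.0107). Its other probe differed by -0.32 (adjusted p = 0.381). Kdm3a, a histone demethylase, was higher by 0.43 on its brightest probe (adjusted p = 0.0435, and 0.0678 without x3 replicate 5 or 0.0718 without acute replicate 11) and differed by -0.27 and -0.01 on the others. In glycolysis, Pgam1 fell by 0.55 on its brightest probe, while its other probe had the opposite sign without a call (0.41, adjusted p = 0.0838). Ldha rose by 0.32, a call that was lost after median scaling (adjusted p = 0.214). Of the p53 targets, 1 of 15 was higher, Zmat3 (0.53 ± 0.14). Of the histone genes, 1 of 14 was lower, H2bc14 (-0.57 ± 0.15), and Neat1, a nuclear long noncoding RNA, fell by 0.49 ± 0.14 (adjusted p = 0.0175). After median or rank-invariant scaling, the calls of Hsph1, Csf1r, Egfl7, Ndufa2, Rpl27 and Rpl38 were lost as well (adjusted p from 0.0563 to 0.256). The lists were read against the 11.4% and 7.1% of all genes, and no list was tested as a set.

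**Figure D3:**
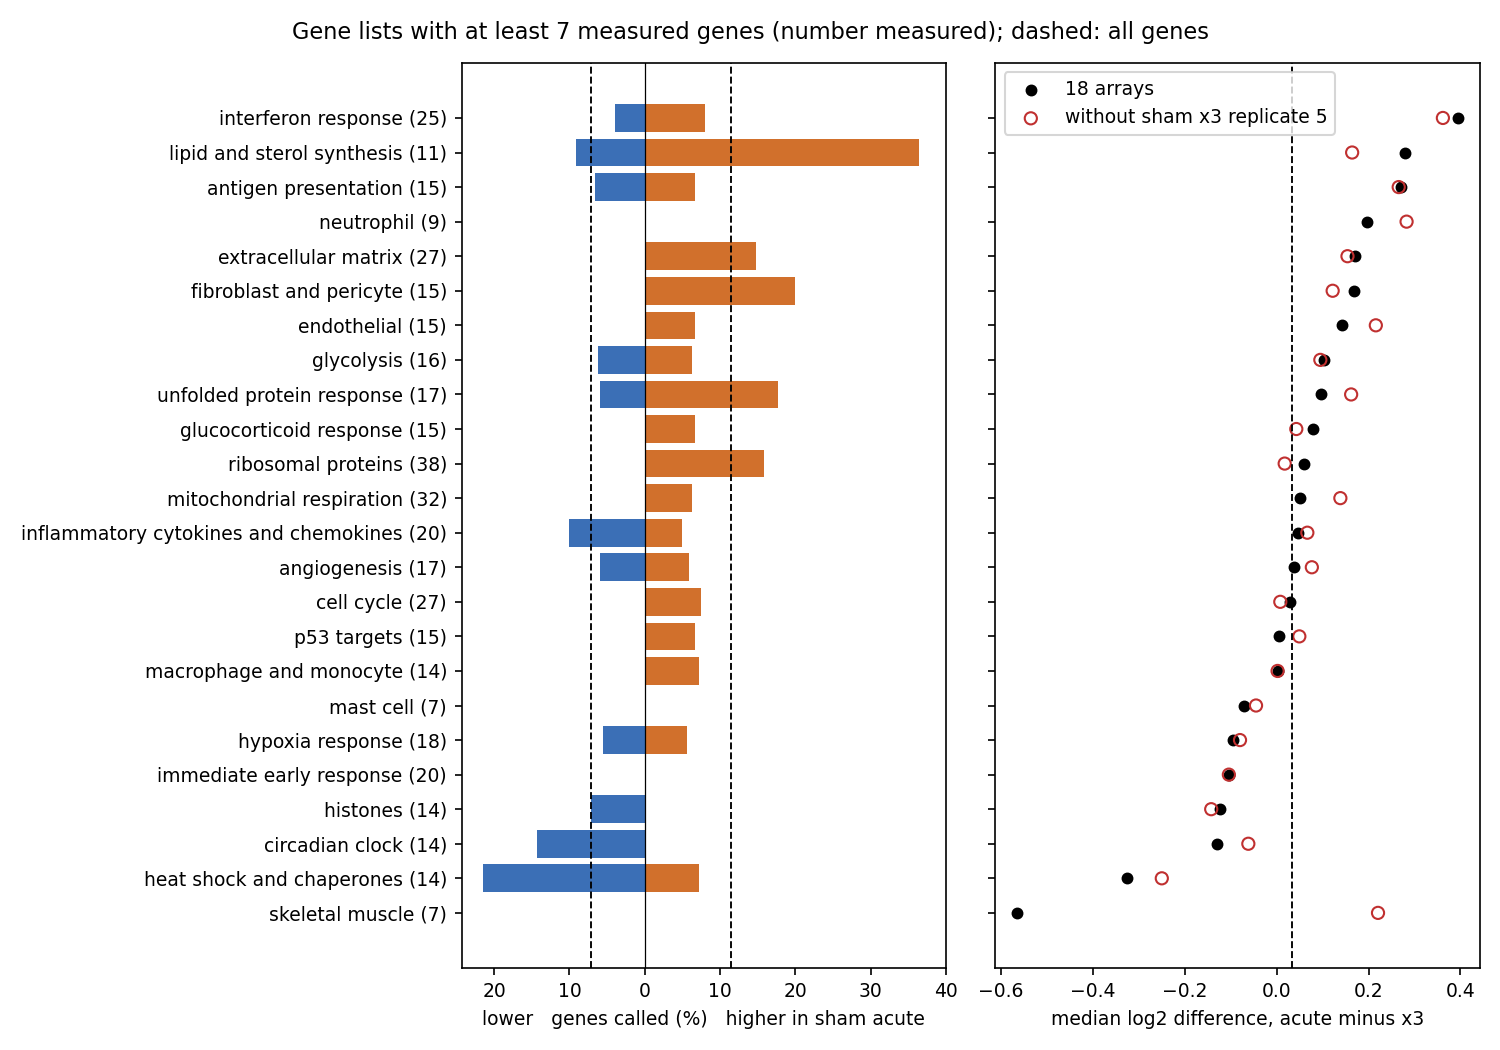
Gene lists with at least 7 measured genes, with the share of genes called higher or lower in acute tumours (%, left) and the median log2 difference, acute minus x3 (right), on all 18 arrays (filled) and without x3 replicate 5 (open). Dashed lines give all genes (11.4% higher, 7.1% lower, median 0.03), and the muscle list moves from -0.56 to 0.22 when the 1 tumour is left out.

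Probes for the same gene often gave different answers. Of 3799 genes with at least 2 kept probes, 1777 had the same sign on all of them. Of the 730 genes that were called and had more than 1 probe, 173 had a second probe called the same way and 77 had one called the opposite way, and 91 genes in all held calls of both directions. The kind of probe mattered for direction. The brightest probe of a gene was called higher in 11.4% and lower in 7.10% of 9636 genes, whereas the other 5617 probes of these genes were higher in 387 cases (6.89%) and lower in 674. In the highest quartile group of level, the brightest probes were 12.6% higher and 8.11% lower and the others 7.92% and 11.7%. The lowest group had more lower than higher calls for both kinds. Among the genes described above, Rtn4, Nectin2, Psmd2, Arap1 and Chil3 rested on at least 2 probes called alike, and Hsp90aa1 and Lss on probes called against each other. The second probes of Dtna, Myo19, Egfl7 and Foxm1 had the same sign as the brightest without a call.

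**Figure D4:**
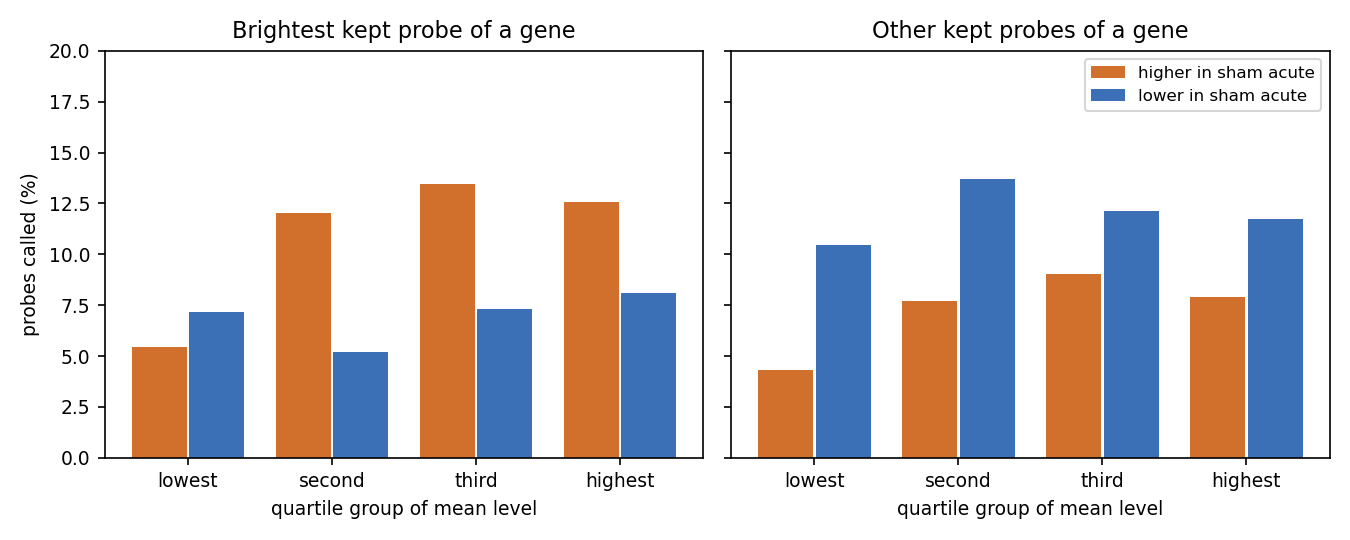
Share of probes called higher or lower in acute tumours (%) by quartile group of mean level over the 18 arrays, for the brightest kept probe of each gene (left) and its other kept probes (right). The other probes are more often lower in every group, while the brightest are more often higher in the upper 3 groups.

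Tumours of old mice carried the same schedule labels, and the difference between the ages was tested as an interaction in 37 arrays taken as unirradiated. Among the old acute tumours, only replicate 10 is described as 0 Gy. Replicates 11 to 19 are described as acute without a dose, and their titles name no radiation. Of 19651 probes kept there, 6015 (30.6%) had a schedule difference that itself differed between the ages, 3592 of them more positive (18.3%) and 2423 more negative (12.3%) in old mice. In old mice 9402 probes were called (47.8%). The raw background differed there too, at 130 ± 9.30 (n = 9) for x3 and 174 ± 22.7 (n = 10) for acute. The ranges overlapped only through acute replicate 10, at 115. The remaining old acute arrays lay between 167 and 195, above every old x3 array (111 to 140). Of the 3316 probes called in adolescent mice, 992 (29.9%) were called in the same direction in old mice and 795 in the opposite one, while 1529 (46.1%) were not called. Of the 1781 genes, 571 were called alike at both ages with no interaction called (316 higher, 255 lower), and 281 were called in opposite directions with an interaction called. Over all 9636 genes, 2254 were called higher and 2310 lower in old mice.

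By the brightest probe, an interaction was called for 2715 of 9636 genes (28.2%). It was called for 18 of the 24 genes with the largest differences, but these were chosen on the same adolescent arrays that enter the interaction, so their interactions are given as a description and nothing is read from their number. Rtn4 was lower by 1.23 in adolescent acute tumours in this fit and higher by 1.75 ± 0.23 in old ones, an interaction of 2.97 ± 0.33 (adjusted p = 2.48e-08). Ddx5, Dctn1, Psmd2 and Rbm39 likewise fell in adolescent and rose in old acute tumours, where their differences were 1.75, 1.24, 0.88 and 0.57. Without 3 arrays that stood apart, x3 replicate 5 and old x3 replicates 6 and 7, the old difference of Dctn1 was 0.75, still called. Tpt1 did the reverse, with a rise of 1.22 in adolescent tumours and an interaction of -2.23 ± 0.26, and was called lower in old ones. Among the 24 genes, those called in the same direction at both ages were Slc27a1 (0.99 and 1.32), Nkx2-2 (0.92 and 0.79) and Rsph3a (-1.12 and -0.73), for which an age difference was not shown (adjusted p = 0.473, 0.727 and 0.178). Tmem176a differed by -1.02 ± 0.43 in old mice (adjusted p = 0.0512) and Chil3 by -1.11 ± 0.64 (adjusted p = 0.15), neither of them called. Without the same 3 arrays these old differences were -0.11 and 0.10 (adjusted p = 0.716 and 0.859). The interaction of Tmem176a went from -2.36 to -1.47 and stayed called, while that of Chil3 went from -2.40 to -1.33 and was lost (adjusted p = 0.0414 and 0.0754).

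Of the 4 collagens and 3 chaperones called higher in adolescent tumours, some were called in old mice and others were not. Col6a1 and Col6a2 both rose there by 1.24, Hsp90b1 by 0.51 and Hyou1 by 0.52, and all were called with and without the 3 arrays. Col3a1 differed by 0.83 in old mice (adjusted p = 0.00778), a call lost without the 3 arrays (0.36, adjusted p = 0.0548), and its adolescent difference was not called in the fit of 37 arrays (adjusted p = 0.105). Col4a1 differed by 0.17 in old mice (adjusted p = 0.444), and by 0.44 without the 3 arrays (adjusted p = 0.0112). Its adolescent difference was not called in this fit either (adjusted p = 0.0583). Hspa5 differed by 0.12 in old mice (adjusted p = 0.54). None of these 7 genes had a called interaction. Tef fell by 1.11 in old mice, with an adolescent difference of -0.65 that was not called in this fit (adjusted p = 0.0608), while Dbp differed by 0.04 there, with an interaction of 0.92 (adjusted p = 0.0157). P4ha1 and Tapbp, called lower in adolescent acute tumours in the fit of 18 arrays but not in that of 37 (adjusted p = 0.0513 and 0.161), were higher in old ones by 1.71 and 1.91 (interaction adjusted p under 0.05 for both). The median of the interferon list was 0.39 in adolescent and -0.27 in old mice, beside 0.03 and -0.02 over all genes. An interaction was called for 4 of its 25 genes, a share below the 28.2% of all genes.

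**Figure D5:**
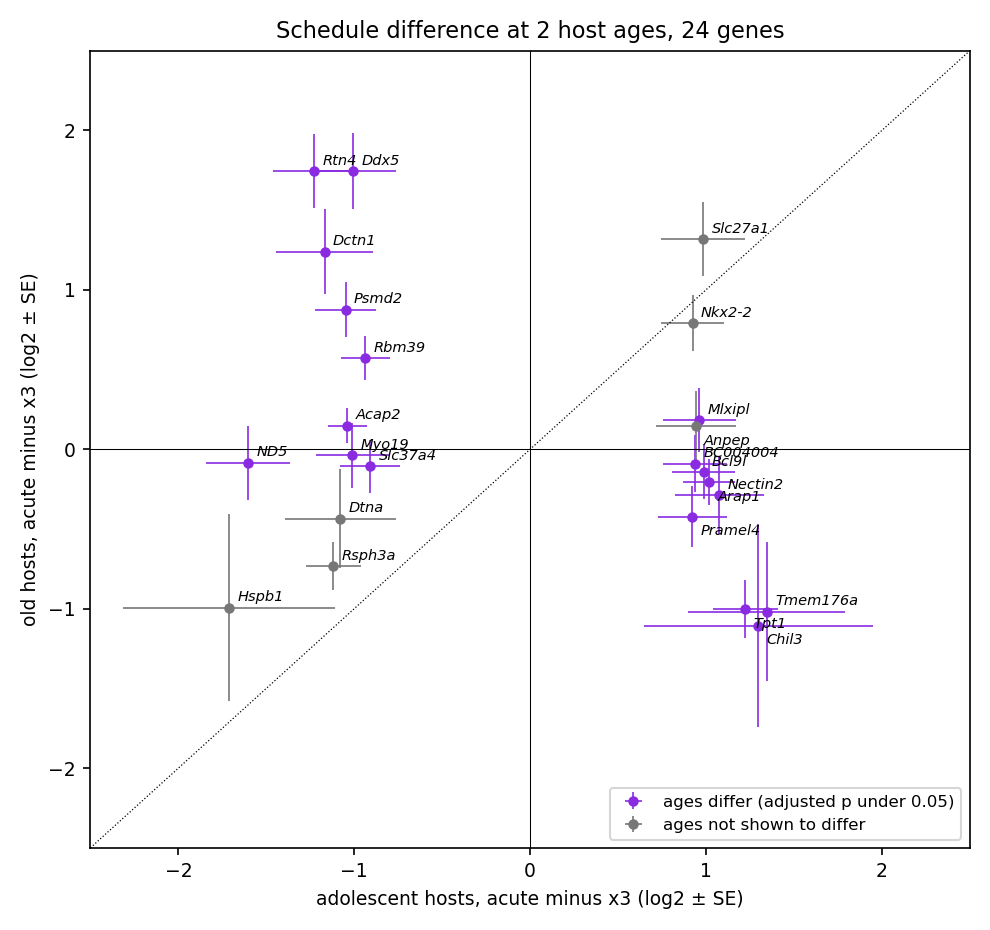
Schedule difference (log2, acute minus x3, ± SE) in adolescent mice (horizontal axis, 9 tumours per schedule) against old mice (vertical axis, 10 acute and 9 x3) for the 24 genes with the largest adolescent differences, from 1 fit of 37 arrays. The dotted line marks equality, and genes in purple had a called interaction, among them Rtn4 and Ddx5 at 1.75 in old mice.

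Irradiated adolescent tumours of the x3 schedule, which did not enter the fit, were placed beside the sham sets. When the 28 adolescent arrays were normalized together, the mean of the 10 irradiated tumours lay nearer to the sham x3 mean than to the sham acute mean for all 24 genes with the largest differences, 12 higher and 12 lower. Rtn4 averaged 9.65 in the irradiated set, 9.45 in the x3 sham and 8.26 in the acute sham. Nectin2 averaged 7.09, 6.85 and 7.92, and Acap2 6.23, 6.66 and 5.55. The 24 genes were chosen for the gap between these same sham sets, and no share over all genes stands beside their count, so nothing is read from it. This is a description with no test, and the irradiated arrays also had the lower background of the x3 set. The sample numbers in the labels run from 134 to 142 for sham x3, 144 to 154 for irradiated and 155 to 164 for sham acute tumours, so each set is a block of its own, and whether the blocks were processed together is not given in the sources used here.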

How the data were processed

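The authors deposited a table of mean bead intensity values for 45281 probes on 57 arrays, which hold neither background subtraction nor normalization (lowest value 70.8), together with a detection p-value for each probe and array, per the file headers. Per the submitters' processing notes, GenomeStudio was used. The series matrix values, also deposited by the authors as linear intensity, served as an alternative; their rank order follows the raw table, with the median per array at 132 to 162, and their scale and centring are not given in the sources used here.

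Groups came from the sample descriptions and, for old acute tumours described without a dose, from titles that name no radiation. The 18 arrays were processed with neqc of limma 3.58.1 in R 4.3.3 (negative controls inferred from detection p-values, offset 16, quantile) and fitted with lmFit and eBayes. Probes were kept at a detection p under 0.05 on at least 9 arrays (17848, 39.4%), and limma's p-values were adjusted after Benjamini-Hochberg over all kept probes. Array-level values were tested with exact permutation tests. Differences on the log2 scale understate the change of dim probes. The number of arrays limits the precision.

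Genes were named from GEO's platform annotation: 34885 probes have 1 symbol, 18 several and 10378 none. Symbols were checked through gene IDs against RefSeq (GRCm38.p6), where 78 probes had no match and 0 symbols changed. The brightest kept probe stood for a gene (9636 genes). Named genes are the 12 largest rises and falls that were called with and without x3 replicate 5 and detected on all 9 arrays of the higher group, plus up to 6 called genes of each of 34 lists by adjusted p. Other list members and probes were named beside them as examples of what was not called, after their values were seen. The members, rules and lists were chosen with earlier results of these data known. No pair of the 18 arrays held identical values (highest correlation 0.987). The fit was tested on simulated data. Alternatives covered arrays, background correction, scaling, filters, weights, covariates, the arrays in the fit, a minimum fold of 1.2, the ANOVA of the design text and probes per gene. The chip of each array is not given in the sources used here, so no chip block was fitted.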

Additional observations from a re-analysis of the deposited data

Results flagged for a closer look

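Of 186 sets of 9 values examined (array measures, marker sums and named genes in each schedule), 19 had a highest or lowest array far from the others by Dixon's criterion, where chance alone would give about 9.3. Of these, 12 were x3 replicate 5: its mean correlation of 0.937 with the other arrays, its log2 marker sums for skeletal muscle (16.99, against a median of 7.81), adipocytes (13.14, against 10.65) and tumour epithelium (11.22, against 11.93), and its levels of Hspb1 (11.42), Dbp (10.67), Dtna (8.98), Tef (9.75), Mlxipl (6.24), Notch1 (7.56), Ddx58 (6.17) and Xbp1 (12.31). The part of muscle tissue in these gene values was not tested. In the x3 set, replicate 8 stood apart for Tmem176a (7.20, against a median of 5.92). In the acute set, replicate 11 stood apart for the endothelial marker sum (13.09, against 12.25) and for Mlxipl (6.78), replicate 12 for E2f1 (9.27), replicate 14 for Rbm39 (7.07), and replicate 16 for Rps4x (14.88) and Srebf1 (7.25).

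The schedule difference itself differed between old and adolescent mice for 6015 probes, by the test of the interaction in limma (adjusted p under 0.05).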

How the results depend on the processing

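The 3316 called probes stayed between 2260 and 4254 under 14 alternatives, including the authors' matrix values (3157), no background correction (3366) and leaving out x3 replicate 5 (3585) or acute replicate 11 (3231). The count fell to 5 (1 higher, 4 lower; 0 and 1 genes) with background intensity as a covariate, to 140 (72 and 68; 40 and 27 genes) with a minimum fold change of 1.2, and to 117 (74 and 43; 47 and 24 genes) by the methods' ANOVA with Bonferroni correction, which called 3201 after Benjamini-Hochberg. The last 2 apply stricter thresholds by construction. Rank-invariant scaling gave 898 higher probes and 592 higher genes, and the fit of all 57 arrays 1049 lower probes; the cause was not tested. The interaction count ranged from 6000 to 7787. The share of detected probes turned from -0.454 to 0.663 points at a detection p of 0.01.

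For the 77 named genes, 1047 of 1363 values kept direction and call, 307 kept direction without the call and 9 turned. With background intensity as a covariate these were Dtna (0.24), Hspb1 (0.95), ND5 (0.11), Neat1 (0.22), Rps4x (-0.11), Rps6 (-0.15) and Zbp1 (0.29), and with the median over a gene's probes Hsp90aa1 (0.11) and Kdm3a (-0.23). No named gene kept its call under every alternative. No paired analysis was possible because the x3 replicates are numbered 1 to 9 and the acute replicates 10 to 18.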

Other observations

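Beyond the genes of the report, signalling molecules of the lists moved in both directions. Il18, a cytokine of the interleukin 1 family, was higher in adolescent acute tumours by 0.56 ± 0.13 (adjusted p = 0.00505), and Pdgfb, the growth factor that recruits pericytes, by 0.46 ± 0.13 (adjusted p = 0.0164). Notch1, a receptor of cell-to-cell signalling, was lower by 0.46 ± 0.13 (adjusted p = 0.0153), and by 0.40 without x3 replicate 5. Foxj1, the transcription factor of ciliated cells, was lower by 0.72 ± 0.15 (adjusted p = 0.00305) and was detected in 8 of 9 x3 but 2 of 9 acute tumours. Its probe was thus kept mainly through the x3 tumours. Tgfb2 and Sbsn were lower by 0.37 and 0.40, and the call of Tgfb2 was lost without x3 replicate 5 (adjusted p = 0.0513) and that of Sbsn without acute replicate 11 (adjusted p = 0.066).

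Among the genes with the lowest adjusted p at both ages and no called interaction, chosen after their values were seen, the fits of 37 arrays gave falls of 0.76 in adolescent and 1.06 in old acute tumours for Ptpn14, a tyrosine phosphatase, of 0.73 and 1.05 for Zzef1, and of 0.83 and 0.99 for Tnrc6b, a partner of Argonaute in microRNA silencing. Rises were 0.74 and 0.58 for Gorasp2, a Golgi stacking protein, 0.65 and 0.68 for Foxp4, and 0.84 and 0.77 for Stmn1, which destabilises microtubules.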
